A study of Mus musculus with 3 samples.

Results

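Oxidative phosphorylation genes were measured in mast cell progenitors (MCps) of WT and p85α−/− mice. Members were the non-control probes of the array whose gene name is that of an Nduf gene (complex I), of Sdha to Sdhd (complex II), of a Uqcr gene (complex III), of a Cox5 to Cox8 gene with a subunit letter (complex IV) or of an Atp5 gene (complex V). This gave 79 of the 27951 gene names tested, with 109 probes, all of which had a value on every array. Complex I held 37 of these genes, complex II 4, complex III 7, complex IV 15 and complex V 16. The rule uses gene names alone. For the 24 genes with several probes, the probe with the highest mean level over both genotypes and 3 arrays stands for the gene unless another is named.

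MCps were grown from low-density marrow cells of 3 WT mice and of 3 mice that lack p85α, a regulatory subunit of class IA PI3K encoded by Pik3r1. Cultures of both genotypes spent 7 days in IL-3 (10 ng/mL) before cells positive for both KIT and the IgE receptor were sorted. The KIT ligand SCF (100 ng/mL) was then added for 48 hours. Each of 3 Agilent 2-colour arrays held 1 WT culture (Cy3) and 1 culture labeled p85α−/− (Cy5), numbered as replicates 1 to 3, so that n = 3 cultures per genotype. The age and sex of the mice were not given in the sources used here, and no culture without SCF was among the samples. The sort yielded few cells, and a global PCR amplified their cDNA before the dyes were added. WT carried Cy3 on every array, so an effect of dye and one of genotype cannot be told apart in any ratio given here.

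Oxidative phosphorylation takes place in the inner mitochondrial membrane. Complex I oxidizes NADH and complex II oxidizes succinate, and both pass electrons to ubiquinone. Complex III hands the electrons on to cytochrome c, and complex IV delivers them to oxygen. Complexes I, III and IV pump protons out of the matrix, and complex V, the ATP synthase, makes ATP as the protons flow back through its rotating c-ring. Most subunits of these complexes are encoded in the nucleus and must be made together with those encoded in mitochondrial DNA, and their promoters are known for sites of NRF1, of the ETS factor GABP and of YY1.

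These promoter sites were looked for first, as a property of the members that the choice by name did not use. In RefSeq's table for GRCm38.p6, a window from 250 bases before to 50 bases after a transcription start was found for 67 of the 79 members and for 27025 genes in all. Both strands were searched for the cores GCGCANGC (NRF1), CCGGAAG (ETS/GABP) and AANATGGC (YY1), and a gene with several windows counted when any of them held the letters. The NRF1 core stood in the windows of 24 members (35.8%) and of 11.2% of all genes. The ETS core stood in those of 17 members (25.4%) and of 9.93% of all genes, and the YY1 core in those of 17 members (25.4%) and of 6.96% of all genes. At least 1 core was found for 46 members (68.7%) and for 24% of all genes. The median GC content was 58.3% in member windows and 52.8% in all windows, and the NRF1 and ETS cores are rich in G and C. Complex V had such a core for 13 of 15 genes and complex I for 23 of 33, whereas complex IV had one for 4 of 12. A match in letters is a description and not evidence of binding.

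The 250 bases before the start are printed for 4 members, chosen after their array values were seen. Atp5h and Atp5j2 are subunits of the ATP synthase with the ratios described below, Ndufb11 is the complex I subunit with the smallest spread among those past both criteria, and Sdha, the flavoprotein of complex II, serves as a member whose ratio lay below 0. Capitals mark a match on either strand: in Atp5h 1 NRF1 core and, on the other strand, 1 ETS core, in Atp5j2 1 NRF1 core on the other strand, in Ndufb11 1 YY1 core, and in Sdha 3 NRF1 cores. The YY1 core of Atp5j2 lies after the start and is not in the bases shown. Positions are those of GRCm38.p6, and each sequence runs 5′ to 3′ on the minus strand of the chromosome, which is the strand of the gene.
Atp5h, chr11:115419920-115420169, minus strand: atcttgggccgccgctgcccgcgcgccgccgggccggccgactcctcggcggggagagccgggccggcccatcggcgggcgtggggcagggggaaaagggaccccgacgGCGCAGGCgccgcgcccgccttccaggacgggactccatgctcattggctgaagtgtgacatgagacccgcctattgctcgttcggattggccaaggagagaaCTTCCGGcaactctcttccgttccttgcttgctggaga
Atp5j2, chr5:145191542-145191791, minus strand: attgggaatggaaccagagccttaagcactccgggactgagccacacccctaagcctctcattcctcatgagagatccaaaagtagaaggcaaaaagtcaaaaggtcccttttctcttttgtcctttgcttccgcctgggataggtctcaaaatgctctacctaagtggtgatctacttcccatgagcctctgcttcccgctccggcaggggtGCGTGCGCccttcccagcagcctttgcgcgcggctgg
Ndufb11, chrX:20617620-20617869, minus strand: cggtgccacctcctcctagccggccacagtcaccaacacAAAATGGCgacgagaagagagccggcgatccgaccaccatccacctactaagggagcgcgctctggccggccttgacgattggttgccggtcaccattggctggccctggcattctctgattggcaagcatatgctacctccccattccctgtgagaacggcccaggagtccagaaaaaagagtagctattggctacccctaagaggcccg
Sdha, chr13:74350241-74350490, minus strand: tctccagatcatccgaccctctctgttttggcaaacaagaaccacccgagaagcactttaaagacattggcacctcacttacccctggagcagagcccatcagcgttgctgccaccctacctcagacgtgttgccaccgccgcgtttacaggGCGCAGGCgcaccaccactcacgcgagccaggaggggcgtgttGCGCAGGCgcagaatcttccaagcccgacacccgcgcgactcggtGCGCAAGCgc
At least 1 core was found for 7 of 10 members past both criteria given below (70%) and for 39 of the 57 other members with a window (68.4%).

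Depth and sample identity bear on all values. The share of spots well above background ran from 69.4% to 85.3% in the WT channel and from 77.3% to 93.8% in the p85α−/− channel, and 0 spots were saturated. Levels are log2 intensities after background correction and quantile normalization of the 6 channels, and a log2 ratio is the level in the culture labeled p85α−/− minus that in the WT culture on the same array. Over all 41157 probes the log2 ratios correlated by a Pearson's r of only 0.01, 0.17 and −0.03 between pairs of arrays. The mast cell markers Kit and Cpa3 were well above background in every culture, whereas Ms4a2, the beta chain of the IgE receptor, was so in WT on 1 of 3 arrays. The summed linear level of 10 mast cell markers was 21979 to 38682 in WT and 69223 to 145298 in p85α−/−. The probe of Cma1 was the brightest of these in each p85α−/− culture, with log2 levels of 16.65, 15.52 and 14.93. Of the 10 markers 9 had a mean ratio above 0, but Mcpt4 had 1.85, −2.11 and −2.41 and Fcer1a −2.99, 3.32 and 1.39. That of 8 neutrophil markers was 10115, 19130 and 8956 in WT on replicates 1, 2 and 3, and 69841, 3161 and 228141 in p85α−/−. The probe of Mpo, the myeloperoxidase of neutrophil granules, made up most of each p85α−/− sum, with log2 levels of 15.48, 10.68 and 17.59. Ltf, Ngp and Prtn3 had mean ratios below 0 (−0.55, −0.11 and −0.51), so that 5 of the 8 markers had a mean above 0. The median ratio of 6 macrophage markers was −0.01, or −0.57 without replicate 1 and 0.39 without replicate 2. That of 7 erythroid markers was 0.02. With each array centred on its median in place of quantile normalization, these 2 medians were 0.46 and 0.34. Of 4 basophil markers 2 had a mean above 0, and their median was 0.38, or −0.27, 1.01 and 1.62 on replicates 1, 2 and 3. The brightest probe of Pik3r1 had log2 ratios of 1.48, −0.03 and 0.33 and is no check of the labels, so each direction given is the one of the cultures labeled p85α−/−. In such mixed RNA, fewer cells of a type and less RNA per cell cannot be told apart.

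The OXPHOS members were, as a group, higher in the cultures labeled p85α−/− than all probes were, but single genes varied widely between arrays. Of the 79 members, 54 had a mean log2 ratio above 0, against 44.8% of all probes tested. The median over members was 0.62, with a range of −1.06 to 3.30, and the median over all probes was −0.05. Per array, the median over members was 1.14, 0.39 and 0.63 on replicates 1, 2 and 3, and 55, 46 and 51 of the 79 members were above 0. With each array centred on its median in place of quantile normalization, the median over members was 1.45 and that over all probes 0.09, a shift of all probes by 0.14 from −0.05, and 69 members were above 0.

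With limma and Benjamini-Hochberg adjustment over all probes, 0 of the 79 members had an adjusted p under 0.05, as had 0 of all 41157 probes (0%), and the lowest adjusted p among members was 0.763. An unadjusted p under 0.05 by limma was found for 11 members. All 11 also differed by at least 1.5-fold, and all 11 were higher in p85α−/− (13.9% of members). Of all probes 4.44% passed both criteria, 2.78% as higher and 1.66% as lower. With the ordinary per-gene test that the study named for its arrays in limma's place, both criteria were passed by 6 members when unpaired, 5 of them higher and 5 of them among the 11, against 2.73% of all probes. When paired by array they were passed by 10 members, 9 of them higher and 9 of them among the 11, against 1.99% of all probes. The log2 ratio was above 0 on all 3 arrays for 22 members, against 12.5% of all probes, and below 0 on all 3 for 6 members, against 13.3%. All 3 p85α−/− levels lay above all 3 WT levels for 9 members, against 4.54% of all probes. They lay below all 3 WT levels for 1 member, against 2445 of all 41157 probes.

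The members past both criteria were Ndufb11, Ndufa4, Ndufb3 and Ndufa6 (complex I), Uqcrb (complex III), Cox5a (complex IV) and Atp5j2, Atp5o, Atp5h, Atp5f1 and Atp5s (complex V). Ndufb11, Atp5h, Atp5o and Atp5j2 passed them under all 15 alternatives tried. Without replicate 1, Ndufa6, Cox5a and Atp5s no longer passed, without replicate 2 Atp5f1 did not, and without replicate 3 neither Atp5f1 nor Atp5s did. With the processed signals of the scanner software Uqcrb and Atp5f1 did not pass, and with the probes of a gene averaged Atp5f1 and Atp5s did not. Of the 11, Ndufa4, Ndufb3, Ndufa6, Cox5a, Atp5s and Atp5f1 did not pass with the unpaired per-gene test, and Ndufa6 and Atp5f1 did not with the paired one. Ndufb3, Ndufa6, Cox5a, Atp5s and Atp5f1 did not pass by limma without the pairing by array.

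The count of members past both criteria was 12, 24 and 14 without replicates 1, 2 and 3, of which 10, 22 and 13 were higher. The share of all probes past both criteria was 3.78%, 7.69% and 4.25%. With median centring 21 members passed, all as higher, against 6.56% of all probes.

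**Figure D1:**
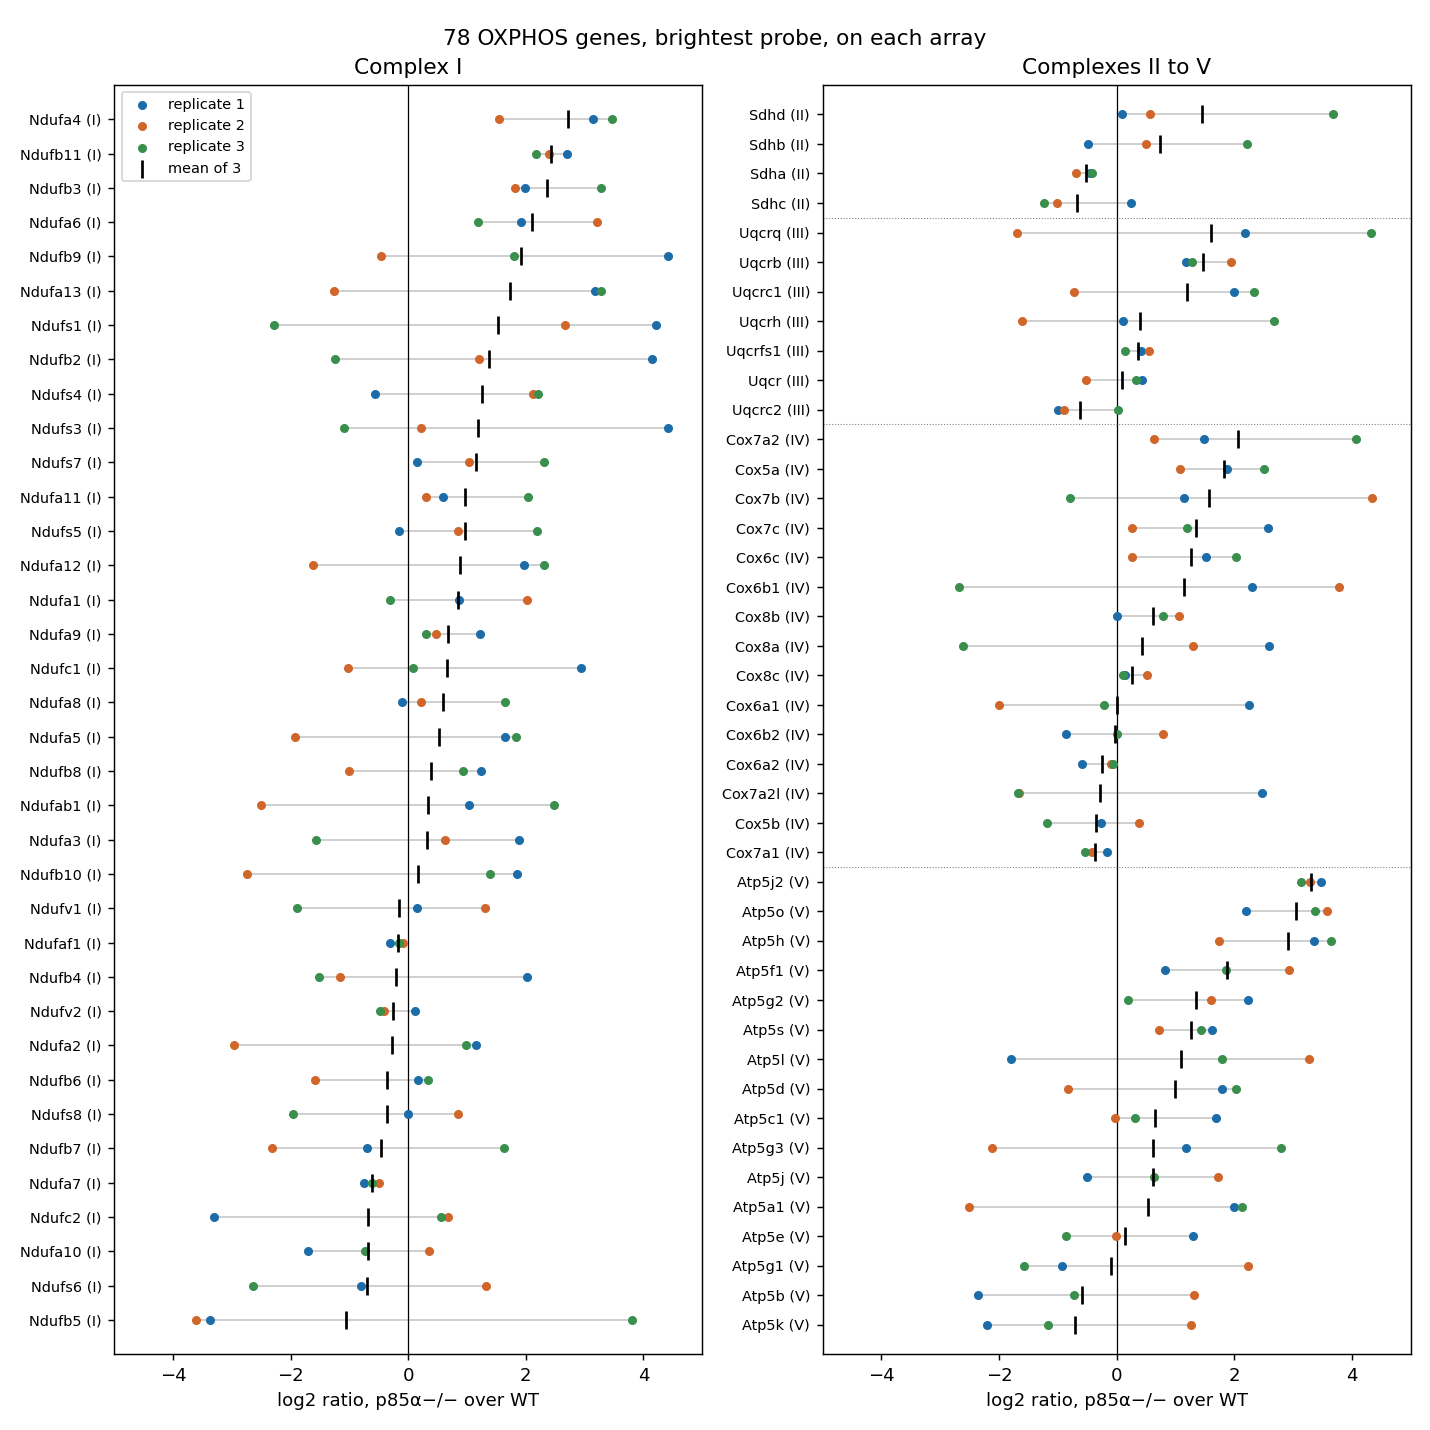
Log2 ratio of p85α−/− over WT (x axis) for 78 of the 79 OXPHOS genes (y axis, complex in parentheses, ordered by mean within a complex). Coloured points are the 3 arrays, the black bar is their mean and the grey line joins lowest and highest. Means run from −1.06 to 3.30, and most genes have points on both sides of 0.

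Most members are bright, 38 of them among the brightest 10% of probes. Within these 10% the median log2 ratio was −0.26 over all probes and 0.76 over the 38 members, and 7.48% of all such probes but 7 of the 38 members passed both criteria as higher. In both channels of every array, 71 of the 79 members were well above background. The other 8 were Ndufb6, Ndufv2, Ndufs4, Ndufa6, Ndufa4, Uqcrfs1, Cox8c and Atp5s. The mean log2 ratio was smaller than its SD over arrays for 52 of the 79 members and for 32798 of all 41157 probes. The median SD was 1.17 for members, 0.67 for all probes and 1.18 for the brightest 10% of probes. Among members, the ratios correlated by a Pearson's r of 0.08, 0.13 and −0.15 between pairs of arrays (79 genes that share arrays and are not independent), so a gene that was high on 1 array was mostly not the one that was high on another.

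**Figure D2:**
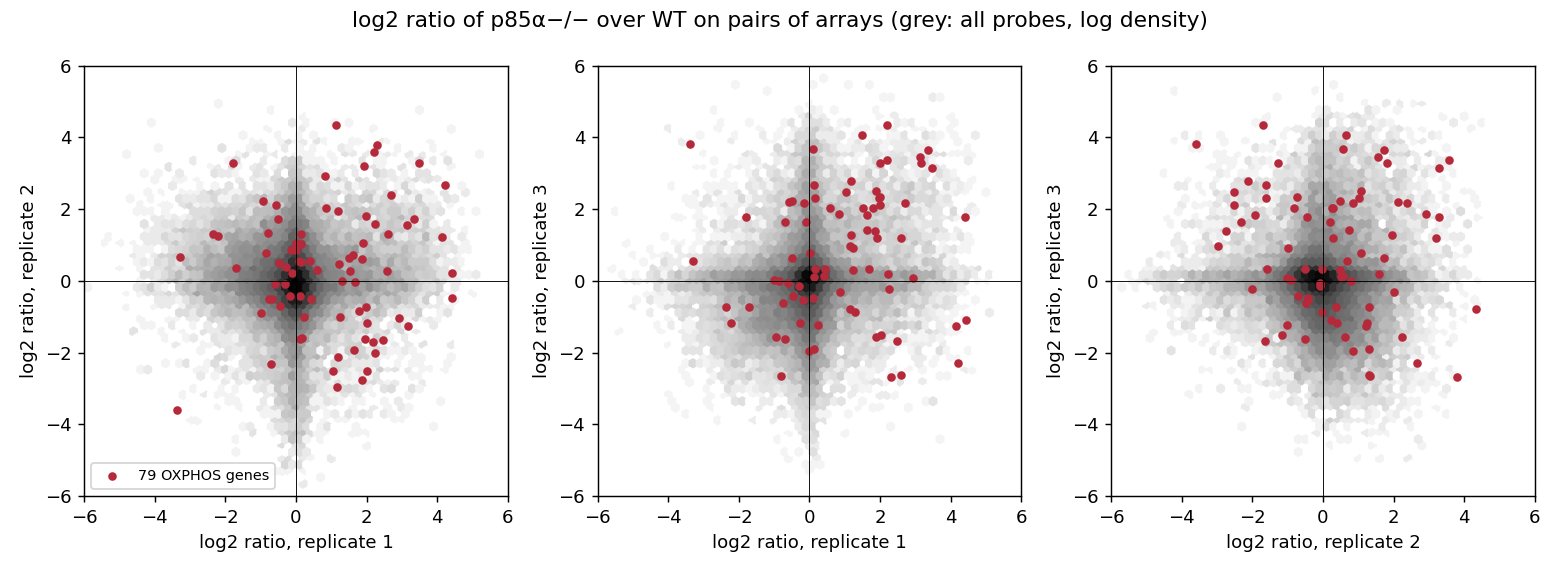
Ratios of p85α−/− over WT, on the log2 scale, for each pair of arrays, with 1 array on each axis. Grey shading is the density of all 41157 probes on a log scale and red points are the 79 OXPHOS genes. The members spread over all 4 quadrants, more of them at the upper right, and show no line, with r between −0.15 and 0.13.

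The summed marker levels given above moved with the members in part. The median log2 ratio of the mast cell markers was above 0 on every array, at 0.98, 1.40 and 0.87, whereas the median of the neutrophil markers was above 0 on replicates 1 and 3 alone, at 1.99, −0.05 and 2.98. The members among the brightest 10% of probes had medians of 1.40, −0.21 and 1.71, high on the same arrays as the neutrophil markers. All probes of these 10% had medians of −0.45, 0.37 and −0.56, the opposite order by array. The other 41 members had 0.24, 0.56 and 0.14. The part of either marker list in the members' ratios was not tested.

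By complex, the median log2 ratio was highest in complex V (0.83), followed by complex I (0.52), complex IV (0.43), complex III (0.39) and complex II (0.11). The difference between complexes was not tested, since 3 arrays share each complex. The order was not stable, since complex III stood above complex V with median centring (1.73 against 1.60), with the processed signals of the scanner software (1.29 against 1.03) and with the log ratio of that software (1.41 against 1.0). With the processed signals complex IV (0.85) also stood above complex I (0.58). Complex V had medians of 1.46, 1.46 and 1.61 on replicates 1, 2 and 3, the smallest range of the 5 complexes with quantile normalization. With loess they were 1.19, 1.23 and 1.98, and with median centring they ran from 1.40 to 2.76, a wider range than that of complex II (0.37 to 1.49). The other complexes did not keep 1 order: complex I had 1.04, 0.21 and 0.93, complex II −0.18, −0.10 and 0.90, complex III 0.44, −0.73 and 1.28, and complex IV 1.49, 0.52 and −0.06. With quantile normalization, only complexes I and V thus had medians above 0 on every array. With loess complex IV did so too (lowest 0.15), and with median centring complexes II and IV (lowest 0.37 and 0.44). Without replicate 1 the median over the mean ratios of complex I was −0.019, and without replicate 3 that of complex II was −0.19. That of complex III was 1.23 without replicate 2 and 0.25 without replicate 3, and that of complex IV was 0.18 without replicate 2. The median over a complex of 3-array means can lie below each array's own median, as in complex V, because different genes were high on different arrays.

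**Figure D3:**
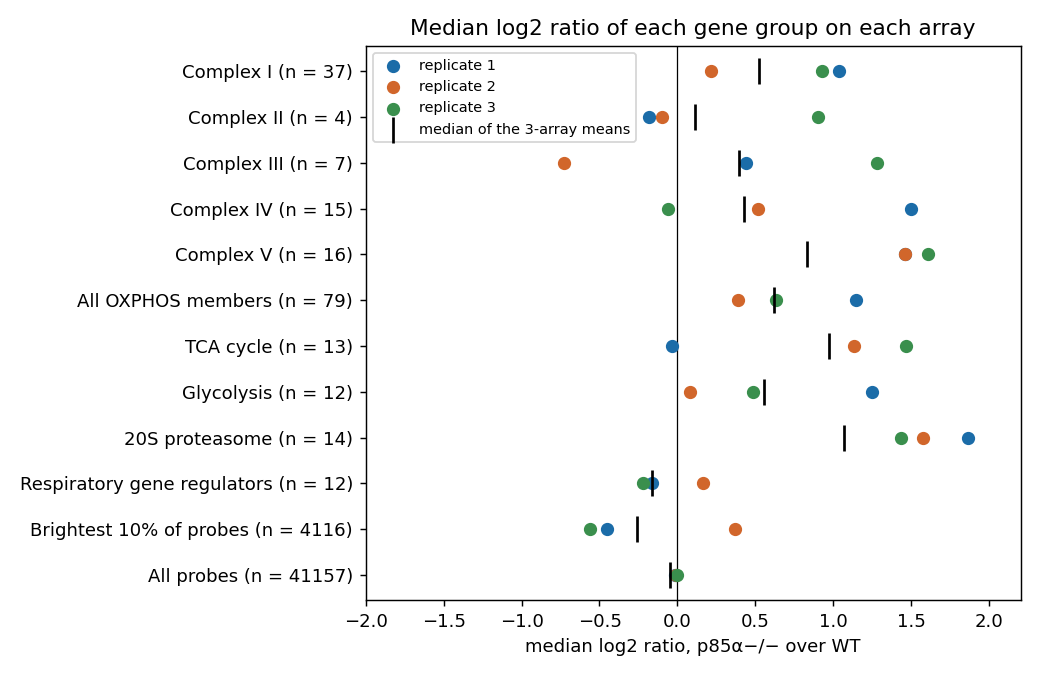
Median log2 ratio of p85α−/− over WT (x axis) for each complex, for all OXPHOS members, for other gene lists and for all probes (y axis, n is the number of genes or probes). Coloured points are the medians on each of the 3 arrays and the black bar is the median of the 3-array means. All values follow quantile normalization, after which complex V has all 3 points between 1.46 and 1.61, with replicates 1 and 2 overlapping, and all probes lie near 0.

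By the name rule, complex V held 5 of the 11 members that passed both criteria, and 13 of its 16 genes had a mean above 0. The highest means were those of genes outside the catalytic head, but so was the lowest, that of Atp5k (−0.71). A difference between parts of the enzyme was not tested. Atp5j2 encodes subunit f, a small membrane subunit of the stator. Its log2 level was 10.47, 10.86 and 11.28 in WT and 13.95, 14.16 and 14.42 in p85α−/− on replicates 1, 2 and 3. All 3 p85α−/− cultures lay above all 3 WT cultures, and the mean log2 ratio was 3.30 ± 0.17 (SD, n = 3), or 9.88-fold (limma, unadjusted p = 0.000242, adjusted p = 0.763). It had the highest mean and 1 of the smallest spreads of the 79 genes.

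Atp5o encodes OSCP, which joins the peripheral stalk to the head. Its level was 10.97, 8.33 and 9.17 in WT and 13.18, 11.91 and 12.54 in p85α−/−, again without overlap, for a mean log2 ratio of 3.05 ± 0.74 (SD, n = 3; limma, adjusted p = 0.763). Atp5h encodes subunit d of the same stalk. Its level was 11.33, 12.18 and 10.86 in WT and 14.69, 13.92 and 14.51 in p85α−/−, also without overlap, for a mean log2 ratio of 2.91 ± 1.03 (limma, adjusted p = 0.823). Its other probe gave 2.87, so both probes of this gene measured nearly the same difference. Its promoter and that of Atp5j2, printed above, each hold an NRF1 core.

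Atp5f1 encodes subunit b, the long helix of the stalk. Its level was 12.13, 8.48 and 10.41 in WT and 12.96, 11.42 and 12.26 in p85α−/−, so that each array gave a higher p85α−/− level while the groups overlapped. The mean log2 ratio was 1.87 ± 1.05 (SD, n = 3; limma, adjusted p = 0.908), but the 2 dimmer probes of Atp5f1 gave 0.92 and −0.45. The remaining gene of this stalk, Atp5j (coupling factor 6), had a log2 ratio of −0.50, 1.72 and 0.63. The 4 stalk genes had a median of 2.39, a grouping made after the values were seen.

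Atp5s encodes coupling factor B, but RefSeq lists it as Dmac2l, so its place in complex V rests on the array's gene name. Its level was 8.24, 6.64 and 6.56 in WT and 9.86, 7.37 and 7.99 in p85α−/−. Each array gave a higher p85α−/− level, the groups overlapped, and the mean log2 ratio was 1.26 ± 0.47 (SD, n = 3; limma, adjusted p = 0.908). The WT signal of Atp5s exceeded background clearly on only 1 of 3 arrays, and its other probe gave 0.18. With processed signals the mean log2 ratio of Atp5s was 3.37, and with the software's log ratio it was 3.63. The small membrane subunits e (Atp5k) and g (Atp5l) had log2 ratios that crossed 0 between arrays, at −2.21, 1.26 and −1.17 for Atp5k and −1.80, 3.27 and 1.79 for Atp5l. Atp5k was the lowest gene of complex V, at −0.71 ± 1.78 and at 0.55 with median centring.

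The F1 head and central stalk, where ATP is made, had no gene past both criteria. Its 5 genes had a median log2 ratio of 0.54 and 4 of them had a mean above 0. The median was 0.15 without replicate 1 and 1.0 without replicate 2, when 2 of the 5 and 7.69% of all probes passed both criteria. It was 1.43 with median centring, when all 5 were above 0. Atp5a1 (alpha subunit) had log2 ratios of 2.00, −2.51 and 2.13, and Atp5b (beta subunit, which carries the catalytic sites) had −2.36, 1.32 and −0.72. These subunits alternate around the head in equal number, and their brightest probes had opposite signs on every array. This did not hold for the second Atp5b probe (0.92, −2.57 and 0.36), which had the sign of both Atp5a1 probes on every array, and the third Atp5b probe had 2.80, 0.16 and −1.21. The central stalk genes Atp5c1 (gamma) had 1.68, −0.03 and 0.32, Atp5d (delta) 1.80, −0.83 and 2.04, and Atp5e (epsilon) 1.30, −0.01 and −0.86. All 5 were below 0 on at least 1 array, and every mean was smaller than its SD.

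The c-ring is encoded by Atp5g1, Atp5g2 and Atp5g3, which give the same mature protein. Their log2 ratios were −0.93, 2.24 and −1.57 for Atp5g1, 2.23, 1.60 and 0.20 for Atp5g2, and 1.19, −2.12 and 2.80 for Atp5g3. On no array did all 3 genes stand on the same side of 0, and none passed both criteria. Atp5g2 was above 0 on every array with a mean of 1.34, but its other probe had a mean of −0.20.

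**Figure D4:**
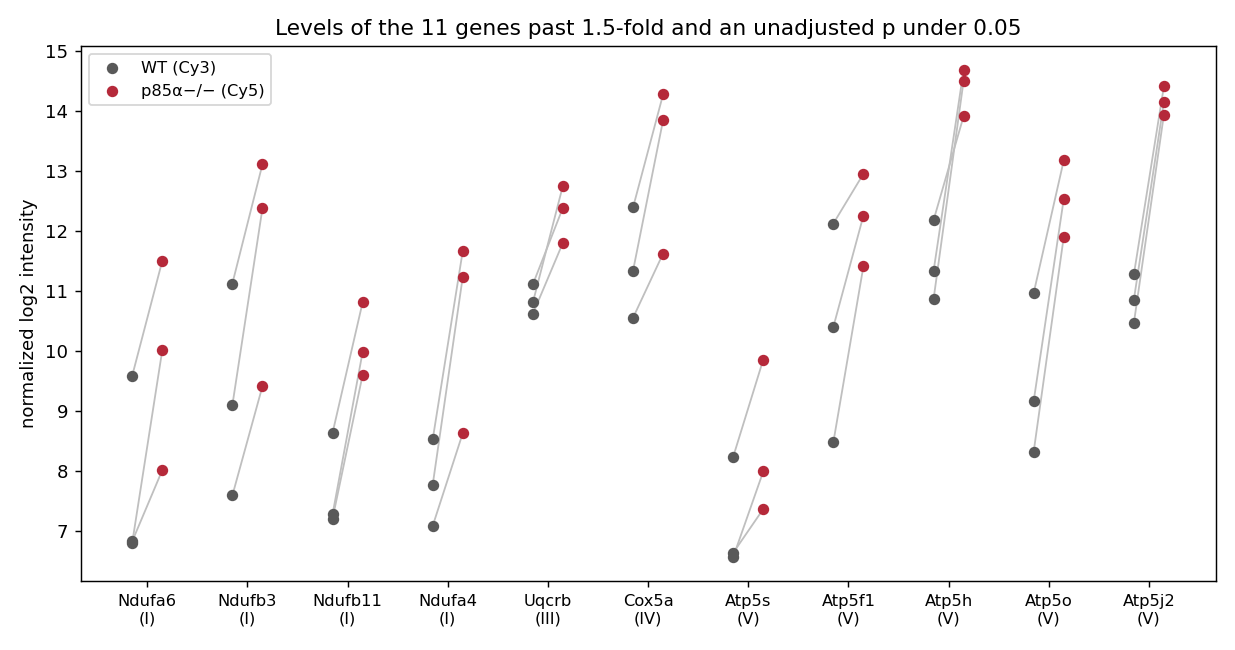
Normalized log2 intensity (y axis) of the 11 OXPHOS genes past 1.5-fold and an unadjusted p under 0.05 (x axis, complex in parentheses). Grey points are the 3 WT cultures, red points the 3 p85α−/− cultures, and lines join the cultures on 1 array. Every line slopes upward, and the groups are apart for Ndufb11, Ndufa4, Uqcrb, Atp5h, Atp5o and Atp5j2. Levels of different genes come from different probes and are not comparable.

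Complex I held 4 members past both criteria, and 23 of its 37 genes had a mean above 0. None of the 4 is a core subunit. Ndufb11 is an accessory subunit of the membrane arm. Its level was 7.28, 7.21 and 8.64 in WT and 9.98, 9.60 and 10.81 in p85α−/− on replicates 1, 2 and 3. The groups did not overlap and the mean log2 ratio was 2.43 ± 0.27 (SD, n = 3), or 5.37-fold (limma, unadjusted p = 0.000936, adjusted p = 0.763). With processed signals the log2 ratio was 3.52 and with the software's log ratio 3.63.

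Ndufa4, named as a complex I subunit but found in complex IV in later work, had a level of 8.53, 7.09 and 7.77 in WT and 11.67, 8.63 and 11.24 in p85α−/−. The groups were just apart, the mean log2 ratio was 2.72 ± 1.03 (SD, n = 3; limma, adjusted p = 0.859), and WT was well above background on 2 of 3 arrays. With processed signals the ratio of Ndufa4 was 3.79 and with the software's log ratio 3.96. Ndufb3, a membrane arm accessory subunit, had 11.13, 7.59 and 9.10 in WT and 13.12, 9.41 and 12.38 in p85α−/−. Levels of Ndufb3 varied so much within a genotype that the groups overlapped, although the 3 log2 ratios (1.99, 1.82 and 3.28) were alike, for a mean of 2.36 ± 0.80 (limma, adjusted p = 0.839). Ndufa6, a small accessory subunit of the peripheral arm, had 9.59, 6.80 and 6.83 in WT and 11.50, 10.01 and 8.01 in p85α−/−. The groups overlapped, WT was well above background on 2 of 3 arrays, and the mean log2 ratio was 2.10 ± 1.03 (limma, adjusted p = 0.908), or 3.86 with processed signals.

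Of the core subunits encoded in the nucleus, which carry the flavin and the iron-sulfur clusters, 6 are described, and 0 of these passed both criteria (limma, lowest adjusted p = 0.908). Ndufs7, which holds the last iron-sulfur cluster, had log2 ratios of 0.15, 1.03 and 2.30, above 0 on every array. Ndufs1, the largest core subunit, had 4.21, 2.67 and −2.29, and Ndufs3 had 4.42, 0.21 and −1.10. Both had replicate 1 high and replicate 3 below 0, and their means of 1.53 and 1.18 were smaller than their SDs of 3.39 and 2.88. Ndufv1, which binds NADH and the flavin, had 0.14, 1.30 and −1.90, and its partner Ndufv2 had 0.11, −0.41 and −0.48. Ndufs8, an iron-sulfur subunit, had 0.00, 0.85 and −1.95. Replicate 3 was below 0 for all of these but Ndufs7.

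The lowest mean of all 79 members was that of Ndufb5, an accessory subunit of the membrane arm. Its level was 12.60, 11.84 and 8.56 in WT and 9.22, 8.23 and 12.36 in p85α−/−, so that replicates 1 and 2 gave log2 ratios of −3.37 and −3.61 and replicate 3 one of 3.81. This was 1 gene with the same size of difference in opposite directions, for a mean of −1.06 ± 4.22 (SD, n = 3). Ndufa7, an accessory subunit of the peripheral arm, was below 0 on every array with little spread (−0.76, −0.49 and −0.62), but its other probe had a mean of 0.33, and with median centring its brighter probe had 0.30. Ndufaf1, an assembly factor that the name rule takes in and that is no subunit, had −0.18 ± 0.11. Ndufab1, the mitochondrial acyl carrier protein, had 1.04, −2.51 and 2.47.

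Complex II had 0 of 4 genes past both criteria (limma, lowest adjusted p = 0.908), and its subunits went different ways. Sdha, the flavoprotein that oxidizes succinate, had a level of 9.40, 10.18 and 9.01 in WT and 8.94, 9.48 and 8.60 in p85α−/−. On every array the log2 ratio was below 0, with a mean of −0.52 ± 0.15 (SD, n = 3), although the groups overlapped, the mean was 0.016 with median centring and the dimmer probe had a mean of 0.96. Sdhb, the iron-sulfur subunit, had log2 ratios of −0.49, 0.50 and 2.22. Of the membrane anchors, Sdhc had 0.24, −1.01 and −1.24 and Sdhd had 0.09, 0.57 and 3.68. Replicate 3 was the highest array for Sdhb and Sdhd and the lowest for Sdhc. Sdhd levels were 7.88, 7.83 and 7.52 in WT and 7.98, 8.39 and 11.20 in p85α−/−, so its groups were apart, but by very little on replicate 1.

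Complex III had 6 of 7 genes with a mean above 0 and 1 past both criteria. Uqcrb, a small subunit that supports the ubiquinone site, had a level of 10.62, 10.81 and 11.11 in WT and 11.81, 12.76 and 12.39 in p85α−/−. The groups did not overlap, and the mean log2 ratio was 1.47 ± 0.42 (SD, n = 3), or 2.77-fold (limma, unadjusted p = 0.00833, adjusted p = 0.908). Uqcrq, another small subunit, had the highest mean of the complex (1.61), from log2 ratios of 2.19, −1.69 and 4.34. The large core proteins differed, Uqcrc1 having 2.00, −0.73 and 2.34 and Uqcrc2 having −1.0, −0.90 and 0.02. Uqcrfs1, the Rieske iron-sulfur protein, had 0.41, 0.56 and 0.14 at a probe whose WT signal was well above background on 1 of 3 arrays. The small subunit listed as Uqcr had 0.44, −0.52 and 0.33, and Uqcrh, the hinge protein, had 0.12, −1.61 and 2.67. Replicate 2 was the lowest array for Uqcrq, Uqcrc1, Uqcr and Uqcrh.

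Complex IV held 1 member past both criteria, and 10 of its 15 genes had a mean above 0. Cox5a, which binds the matrix side of the enzyme, had a level of 12.40, 10.56 and 11.34 in WT and 14.28, 11.63 and 13.85 in p85α−/−. Each array gave a higher p85α−/− level, the groups overlapped, and the mean log2 ratio was 1.82 ± 0.72 (SD, n = 3), or 3.54-fold (limma, unadjusted p = 0.0104, adjusted p = 0.908). The dimmer Cox5a probe gave 0.49. Cox5b, which binds zinc at the same face, had −0.27, 0.39 and −1.19. Cox6c and Cox7c were above 0 on every array, with means of 1.27 and 1.35.

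Several subunits of complex IV exist as an isoform known for muscle, heart or testis and a widely expressed partner. Of the first kind, 5 were found under these names, Cox6a2, Cox6b2, Cox7a1, Cox8b and Cox8c, with a median log2 ratio of −0.02 (0.52 with median centring) and means between −0.37 and 0.62. Cox7a1 was the lowest gene of the complex, with −0.17, −0.41 and −0.53, and Cox8c was well above background on 1 of 3 arrays in either genotype. The widely expressed Cox6a1, Cox6b1, Cox7a2, Cox7b and Cox8a had a median of 1.14, and all 5 means were above 0, but 0 passed both criteria. That median was 1.80 with median centring, when 1 passed, against 6.56% of all probes. Without replicates 1, 2 and 3 it was 0.55, 0.18 and 1.95, and 2 passed without replicate 3, against 4.25% of all probes. The median of the first kind was then 0.31, −0.33 and −0.04. Cox7a2, the highest gene of the complex, had levels of 9.92, 11.70 and 8.70 in WT and 11.41, 12.34 and 12.77 in p85α−/−, for a mean log2 ratio of 2.07 ± 1.79 (SD, n = 3; limma, unadjusted p = 0.0629, adjusted p = 0.908). Its other probe gave 2.06. Cox6b1 (2.31, 3.79 and −2.68), Cox8a (2.60, 1.30 and −2.61) and Cox7b (1.14, 4.35 and −0.79) were above 0 on replicates 1 and 2 and below 0 on replicate 3. Cox7a2l, which helps to join complexes III and IV, had 2.47, −1.66 and −1.68.

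Probes of 1 gene were a further measure of error. Among the 24 genes with several probes, all probes had a mean on the same side of 0 for 16 genes and not for 8. The range between the probe means of a gene was 1.0 at the median, from 0.013 for Cox7a2 to 2.36 for Ndufa1. Both Ndufa1 probes were above 0, at 0.85 for the brighter and 3.22 for the dimmer. The dimmer Ndufa1 probe was higher in p85α−/− on every array (3.11, 2.35 and 4.18), and it would have passed both criteria (limma, unadjusted p = 0.00265, adjusted p = 0.763). Ndufs4, an accessory subunit of the peripheral arm, had 1.25 at its brighter and −0.99 at its dimmer probe. The array's annotation names no genome build, and binding of related transcripts by these probes was not tested.

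**Figure D5:**
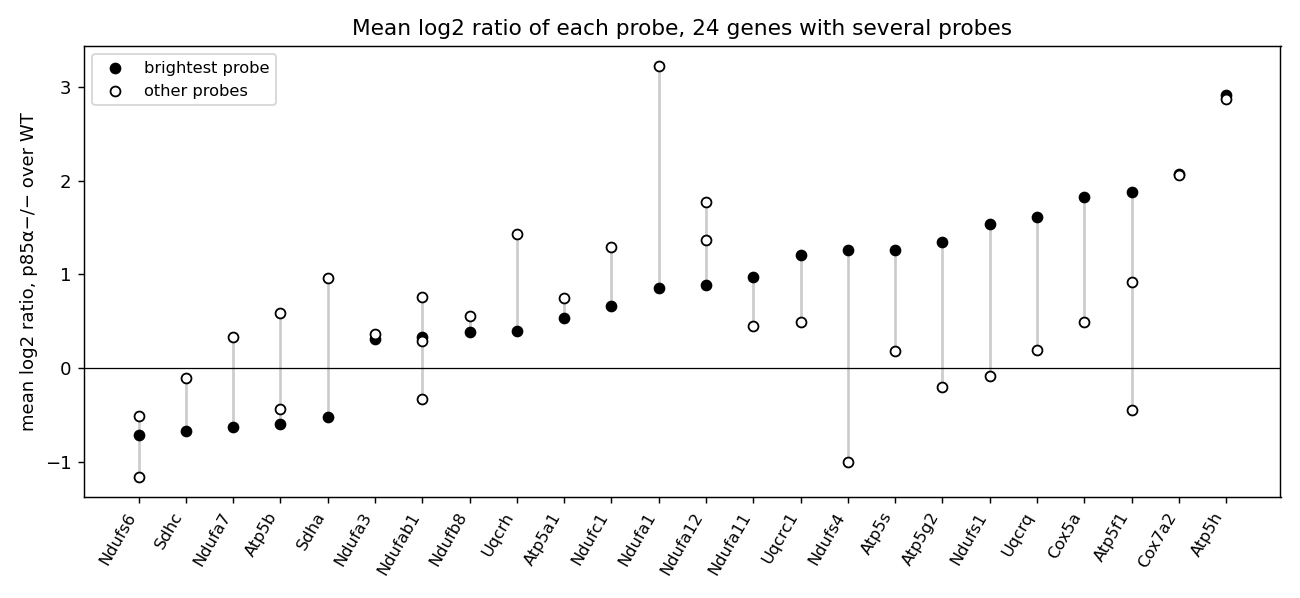
Mean log2 ratio over 3 arrays of p85α−/− over WT (y axis) for every probe of the 24 OXPHOS genes with several probes (x axis, ordered by the brightest probe). Filled circles are the brightest probe, open circles the others, and the grey line their range. Probes of Atp5h and Cox7a2 nearly coincide, and those of 8 genes lie on both sides of 0.

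Genes of the same pathway that the name rule does not take were also read. By transcript accession, 9 more members of these families stood under older names, 7 of them with a mean above 0, with a median log2 ratio of 0.72, and 0 passed both criteria (limma, lowest adjusted p = 0.908). Among them, Uqcr10 had 2.28, −1.54 and −0.60, and Ndufv3 had the lowest mean (−1.25). Ndufaf3, Ndufaf4, Ndufaf5 and Ndufaf7, also among the 9, are assembly factors like Ndufaf1 and no subunits. Their means were 0.72, 0.84, 0.084 and 1.07. Of 10 listed genes of the chain outside the name rule, of which Usmg5 is also among these 9, 7 had a mean above 0 and the median was 0.40. It was 0.040 without replicate 1, 0.76 without replicate 3 and 1.07 with median centring. Cox4i1, the widely expressed form of the largest nuclear-encoded subunit of complex IV, passed both criteria with log2 ratios of 1.42, 0.76 and 3.21, but not without replicate 1 or replicate 3, with loess, with processed signals or with the software's log ratio. Its other isoform Cox4i2 had 1.14, 1.12 and −1.82. Cytochrome c (Cycs) had 0.69, 2.45 and −1.20 and cytochrome c1 (Cyc1) had 1.19, −0.37 and 0.18. Neither cytochrome kept 1 direction. Of 8 genes found for the assembly of complex IV and its copper supply, 0 passed both criteria and the median was 0.15, or between 0.0012 and 0.40 with 1 replicate left out and 0.51 with median centring (limma, lowest adjusted p = 0.908).

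Among 12 regulators of respiratory genes the median log2 ratio was −0.16 (0.45 with median centring), and 1 passed both criteria, as lower. This was Tfam, which packages mitochondrial DNA and helps to start its transcription. Its level was 14.28, 14.59 and 14.66 in WT and 13.11, 13.78 and 13.69 in p85α−/−, without overlap, for a mean log2 ratio of −0.98 ± 0.18 (SD, n = 3; limma, unadjusted p = 0.0170, adjusted p = 0.908). With median centring the mean of Tfam was 0.40, and it did not pass without replicate 1 or replicate 3, with processed signals or with the software's log ratio. Nrf1, whose core was searched in the promoters, had 0.49, 0.60 and −0.45, Gabpa had 3.55, 0.24 and 2.54, and Yy1 had −0.38, 0.77 and −0.13. Gabpa was above 0 on every array but missed the threshold (limma, unadjusted p = 0.0530), which it passed without background subtraction, with processed signals, with the software's log ratio and without replicate 2.

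Other lists of widely expressed genes were set beside the members. Of all probes, 4.44% passed both criteria in either direction. That share was 3.78% without replicate 1, 7.69% without replicate 2 and 6.56% with median centring. The 13 enzymes of the tricarboxylic acid cycle had a median log2 ratio of 0.97, and 2 passed both criteria as higher (4 without replicate 1 and 5 with median centring), Mdh2 (1.56, 1.28 and 1.61) and Dlst (3.09, 1.03 and 1.87), the latter not without replicate 3. The 12 glycolytic enzymes found had a median of 0.55 (0.15 without replicate 1, 0.93 without replicate 2 and 1.72 with median centring), with Tpi1 past both criteria as higher (0.99) and Pfkl as lower (−1.10). Tpi1 did not pass without replicate 1 or replicate 3, with loess, without background subtraction, with processed signals or with the software's log ratio. Pfkl did not pass without replicate 2 or replicate 3, with median centring, with processed signals or with the software's log ratio. Without replicate 2, 4 glycolytic enzymes passed as higher and 0 as lower. The 14 subunits of the 20S proteasome had a median of 1.07 (1.82 without replicate 1 and 1.99 with median centring), and 4 passed both criteria as higher (6 without replicate 1 and with median centring), Psma1, Psma2, Psma7 and Psmb6. Psma1 did not pass without replicate 1 or replicate 2. The proteasome medians per array were 1.86, 1.58 and 1.43, all above those of the OXPHOS members on the same arrays. The difference between lists was not tested.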

How the data were processed

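Each of 3 arrays compared 1 WT (Cy3) with 1 p85α−/− (Cy5) culture of MCps, from 250 ng of amplified cDNA. The authors deposited, per array, the spot intensity values of Agilent Feature Extraction 9.5.1.1 (mean signal, background median, processed signal) and its log10 ratio, without normalization between arrays, and 1 table of log10 ratios. On replicates 1, 2 and 3 of the latter, 40929, 190 and 226 of 40929 probes with 1 spot carried their own ratio (tolerance 1.5e-05), so it was not used.

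Here mean signals were corrected with normexp (offset 50), the 6 channels were quantile normalized, the procedure the methods name, and control and outlier spots were left out (R 4.3.3, limma 3.58.1). Of 41174 probes, 41157 had a log2 ratio on every array and were tested against 0 with limma's moderated test and Benjamini-Hochberg adjustment. The ratio pairs the cultures that share an array. Both criteria are 1.5-fold and an unadjusted p under 0.05, which the study used. The procedure was tested on simulated data. Values on every array are given for core, F1 and complex II genes, members past both criteria and the 2 highest and 2 lowest genes of the other complexes. Further genes with such values were chosen after their values were seen. Counts and medians cover all 79 members, but 1 of them is not reported here by name. The members and lists were chosen with earlier results of these data known. The cultures came from different mice, and 3 arrays limit the precision.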

Additional observations from a re-analysis of the deposited data

How the results depend on the processing

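Over 16 alternatives, 0 members had an adjusted p under 0.05, and the median log2 ratio of the members stayed above 0. Median centring moved it to 1.45, the count of members past both criteria from 11 to 21, and the medians of complexes I, II, III, IV and V to 1.46, 0.69, 1.73, 1.11 and 1.60. Members above 0 went from 54 to 69. Those that it turned above 0 include Atp5b (0.33), Atp5k (0.55), Cox5b (0.58), Cox6a2 (0.52), Cox7a1 (0.48), Ndufa7 (0.30), Ndufs8 (0.29), Ndufv1 (0.087), Sdha (0.016) and Uqcrc2 (0.21). Complex V was at 0.97 without background subtraction, 1.03 with processed signals, 1.0 with the log ratio of the software and 0.65 when the probes of each gene were averaged, and complex III was at 1.29 with processed signals and 1.41 with that log ratio, so that complex III stood above complex V under these and under median centring. Complex IV was at 0.85 with processed signals, above complex I at 0.58. The unpaired Student's t-test counted 6, and Sdha was at 0.22 when its probes were averaged. Without the pairing by array (no replicate block), limma counted 10 members, 9 of them higher and 6 of them among the 11, against 4.4% of all probes. The cause of these shifts was not tested.

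With 1 replicate left out, the members' median ran from 0.34 to 0.87, the count from 12 to 24, complex I from −0.019 to 0.96, complex II from −0.19 to 0.40, complex III from 0.25 to 1.23, complex IV from 0.18 to 0.54 and complex V from 0.70 to 1.28. Members whose mean changed sign with 1 array left out include Atp5a1 (−0.25 to 2.06), Atp5b (−1.54 to 0.30), Atp5e (−0.44 to 0.64), Atp5k (−1.69 to 0.043), Cox5b (−0.73 to 0.059), Ndufb5 (−3.49 to 0.22), Ndufs3 (−0.44 to 2.32), Ndufs8 (−0.98 to 0.42), Ndufv1 (−0.88 to 0.72) and Uqcr (−0.093 to 0.38). The deposited table was not run, since on 2 arrays few of its probes carried their own ratio. Signal over background limits the 8 dim members most.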
